A study of Homo sapiens with 4 samples.

Results

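The cytosolic ribosomal protein genes make up the protein part of the ribosome, and 81 of the 60617 genes in the deposited count table belong to them. They were chosen by symbol (RPL or RPS followed by a number, with an optional A, X or L), together with RPLP0, RPLP1, RPLP2 and RPSA, and RPL6, which the table lists under another name and which was matched by its gene ID (ENSG00000089009). Of the 81 genes, 49 encode proteins of the large subunit and 32 encode proteins of the small subunit. They were measured in SCC13, a line established from a cutaneous squamous carcinoma, with its genotype labelled WT, grown in CnT-07 medium with penicillin and streptomycin. Cells labelled CELF2 knockdown received a lentivirus with an shRNA against CELF2, an RNA-binding protein that acts on the splicing and stability of mRNAs, and control cells received a lentivirus with a scrambled shRNA. All 4 libraries were therefore from infected cells, with 2 libraries in each group, made from polyA RNA with a TruSeq kit. The sources used here do not say whether 1 shRNA or more was used against CELF2.

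A ribosome is built in the nucleolus from ribosomal RNA and 1 copy of nearly every ribosomal protein, so the proteins are needed in matched amounts. The large subunit joins amino acids and releases the growing chain through its exit tunnel, and the small subunit binds the mRNA and reads the codons. Most mRNAs of these proteins begin with a C and a run of pyrimidines, the terminal oligopyrimidine tract (TOP), through which mTOR signalling and LARP1 control their translation and stability. RNA sequencing measures the level of the mRNAs and not how often they are translated.

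The starts of 11 of these genes are shown because the results below turn on these genes and because the windows differ in the tract the family is known for. RPLP0, RPS6, RPS19, RPS27, RPL36A and RPS10 have a C and 4 pyrimidines at the annotated start, and RPL3, RPL10A, RPS26, RPS27L and RPS4X do not. Each window is 30 bases of the strand that reads as the mRNA does, from RefSeq (GRCh38.p14), with the annotated start of transcription at base 16. The capitals mark the longest run of pyrimidines in the window, or the first of equally long runs.
RPLP0 (chr12:120201097-120201126, minus strand): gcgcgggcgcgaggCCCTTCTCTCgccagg
RPS6 (chr9:19380222-19380251, minus strand): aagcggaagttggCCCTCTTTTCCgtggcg
RPS19 (chr19:41860240-41860269, plus strand): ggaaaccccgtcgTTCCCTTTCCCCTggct
RPS27 (chr1:153990747-153990776, plus strand): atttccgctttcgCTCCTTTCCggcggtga
RPS27L (chr15:63157463-63157492, minus strand): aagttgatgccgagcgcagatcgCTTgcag
RPS4X (chrX:72277234-72277263, minus strand): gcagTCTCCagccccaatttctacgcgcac
RPL3 (chr22:39319609-39319638, minus strand): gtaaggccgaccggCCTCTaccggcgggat
RPL10A (chr6:35468386-35468415, plus strand): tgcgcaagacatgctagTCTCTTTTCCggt
RPS26 (chr12:56041903-56041932, plus strand): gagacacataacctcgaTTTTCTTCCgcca
RPL36A (chrX:101390996-101391025, plus strand): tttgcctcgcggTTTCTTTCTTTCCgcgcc
RPS10 (chr6:34426055-34426084, minus strand): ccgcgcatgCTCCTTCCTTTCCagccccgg
The longest run held 13 pyrimidines in RPL36A, in RPS10 and in the RPS19 window, which is at 1 of 2 RefSeq starts of that gene. It held 3 in the paralog RPS27L and 5 in RPS4X and in RPL3. RPS4X also holds another run of 5, not in capitals, just after the annotated start. RPL10A and RPS26 held runs of 10 and 9 pyrimidines that begin just after the annotated start, so a match fixed at base 16 misses them.

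RefSeq gave at least 1 start for 64 of the 81 genes, 79 windows in all. A C at the annotated start followed by 4 pyrimidines stood in 46 of these windows (58.2%), against 4.07% of the 35116 RefSeq windows of all genes. The letters CTTTC occurred within 15 bases of the start in 39.2% of the ribosomal protein windows, against 4.41% of all windows, and on the other strand (GAAAG) in 2.53% and 3.21%. The letters CTTCC occurred in 31.7% and 7.27% of the windows, and on the other strand (GGAAG) in 5.06% and 6.87%. Both motifs may share bases, and 13.9% of the ribosomal protein windows held both, against 0.459% of all windows. These are matches of letters and not measured binding sites. Among the genes with no window were RPL5, RPL7, RPL8, RPL23, RPL23A, RPL30, RPL37, RPL3L, RPL39L, RPS2, RPS15A and RPS20.

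The knockdown libraries held 19928788 and 23177056 counts and the control libraries 27898889 and 17649090, spread over 20733 to 22041 genes with at least 1 count. CELF2 itself had 0 counts in both knockdown libraries and 1 and 0 counts in the control libraries, so the targeted gene could not check the labels. The 8 keratinocyte markers summed to 25273 and 17725 CPM (counts scaled to library depth by TMM) in the knockdown libraries and to 11862 and 18394 CPM in the controls, and the fibroblast markers to 38.1 and 21.1 CPM in the knockdown libraries and 13.3 and 16.3 CPM in the controls, with COL1A2, COL3A1, DCN and LUM at 0. Melanocyte markers summed to 9.02 and 9.05 CPM in the knockdown libraries and 8.82 and 6.11 CPM in the controls, with MLANA, TYR and SOX10 at 0. Endothelial markers summed to 1.82 and 2.23 CPM in the knockdown libraries and 0.679 and 0.356 CPM in the controls, and immune markers to 10.7 and 2.19 CPM in the knockdown libraries against 1.25 and 0.416 CPM in the controls, with PTPRC and CD3E at 0. The sums of the fibroblast, melanocyte, endothelial and immune markers were higher in both knockdown libraries than in both controls. Most of the fibroblast and immune sums came from 1 gene each. COL1A1 had 37.5 and 20.7 CPM in the knockdown libraries and 13.1 and 16.1 CPM in the controls. CD14 had 10.65 and 2.02 CPM in the knockdown libraries and 1.21 and 0.356 CPM in the controls. For MITF, the highest melanocyte marker, the groups overlapped. The part of these markers in the results was not tested. The labels do not say that the replicates were separate cultures, so the p-values reflect the spread among these libraries alone, which may be technical.

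The ribosomal protein genes together took 5.74% and 5.53% of all counts in the knockdown libraries, against 5.73% and 6.35% in the control libraries. Control replicate 2 was the high library, and control replicate 1 stood level with knockdown replicate 1, so the groups overlapped. In these bulk samples, fewer cells of a type and less RNA per cell cannot be told apart.

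**Figure D1:**
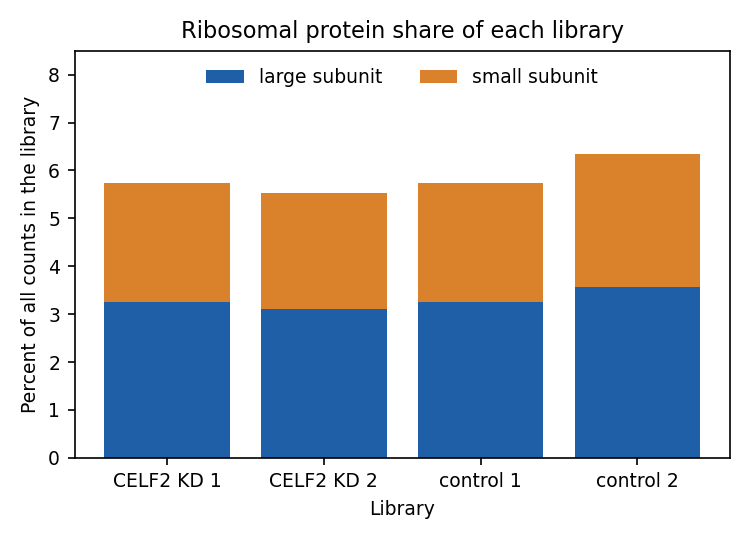
Percent of all counts in each library that fell on ribosomal protein genes, with large subunit genes at the bottom of each bar and small subunit genes on top. The knockdown libraries stood at 5.74% and 5.53% and the controls at 5.73% and 6.35%, so the tallest bar is control replicate 2.

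No ribosomal protein gene changed past the threshold. Of 15171 genes tested over the whole table with edgeR's quasi-likelihood test, 133 (0.877%) were called at a Benjamini-Hochberg adjusted p below 0.05, 92 higher (0.606%) and 41 lower (0.27%) in the knockdown, and 0 of the 80 tested ribosomal protein genes were among them. The smallest adjusted p of the 80 was 0.0618, and 11 of them had an unadjusted p below 0.05, as did 22.1% of all tested genes. limma-voom called 0 of the 15171 genes, so its 0 for the 80 genes and for every list below follows from that and says nothing about them. DESeq2 called 3 of the 80, RPL10A and RPL3L among them, of 1386 called genes (9.14%). With no filter on low counts, 4 of the 80 were called, RPL10A, RPL36A and RPL3L among them, where 8.25% of all genes were, and with the replicate number as a block 3 were called, RPL36A and RPL3L among them, where 10.4% of all genes were. The gene that the filter on low counts removed was RPL10L (ENSG00000165496, chromosome 14, 46651010 to 46651821, minus strand), a paralog of RPL10 that is expressed in the testis. It had 0 counts in every library, which allows up to 0.148 and 0.126 CPM in the knockdown libraries and 0.107 and 0.178 CPM in the controls, counting error only.

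Fold changes of the 80 genes were small and mostly below 0. The log2 fold change of the knockdown over the control was below 0 for 71 of them (88.8%) and above 0 for 9, against 50.4% below 0 among all tested genes. Its median over the 80 was -0.17 with quartiles of -0.25 and -0.09, against a median near 0 (-0.004) over all tested genes. Both knockdown libraries were below both control libraries for 39 of the 80 genes (48.8%), where 27.8% of all tested genes showed that order. The opposite order held for 1 gene, RPL3L, where 27.1% of all tested genes showed it. The 2128 other genes whose mean reached 100 CPM had a median of -0.09, with 60.0% below 0 and 39.0% with both knockdown libraries below both controls.

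The size of this shift rested on which control library was used. The median level of the 80 genes was 593 and 594 CPM in the knockdown libraries, against 636 and 714 CPM in the control libraries. Control replicate 2 was above control replicate 1 for 74 of the 80 genes, by a median of 0.20 on the log2 scale, while the median difference of knockdown replicate 2 from replicate 1 was -0.05. Without control replicate 2 the median log2 fold change was -0.04, with 52 of the 80 genes below 0. Without control replicate 1 it was -0.27, with 77 of them below 0. Across the other genes at 100 CPM or more, the median difference of control replicate 2 from replicate 1 was 0.01.

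**Figure D2:**
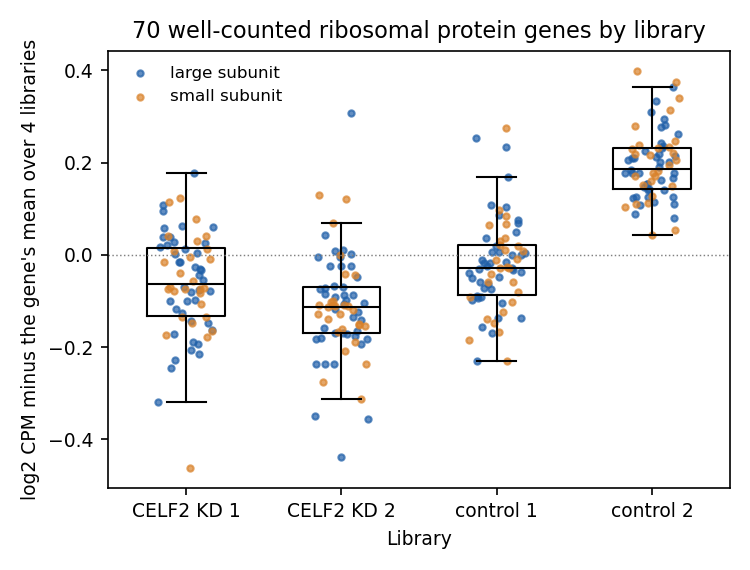
Log2 CPM of 70 ribosomal protein genes in each library, minus the mean of that gene over the 4 libraries, with a dot per gene (blue for large subunit, orange for small subunit) and a box for the median and quartiles. The dots of control replicate 2 lie above 0 and those of knockdown replicate 2 mostly below it, while knockdown replicate 1 and control replicate 1 overlap.

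Large and small subunit genes stood at nearly the same place. The 48 tested large subunit genes had a median log2 fold change of -0.15, with 44 of them below 0, and the 32 small subunit genes had a median of -0.18, with 27 below 0. Both knockdown libraries were below both controls for 21 of the 48 large subunit genes (43.8%) and for 18 of the 32 small subunit genes (56.3%). Among all tested genes the share was 27.8%. Large subunit genes accounted for 3.25% and 3.11% of all counts in the knockdown libraries and 3.26% and 3.57% in the controls, and small subunit genes accounted for 2.50% and 2.42% in the knockdown libraries and 2.47% and 2.77% in the controls. The ratio of large to small subunit counts was 1.30 and 1.29 in the knockdown libraries, against 1.32 and 1.29 in the controls, with replicate 2 of both groups the lower. No test was made of the difference between the subunits. The large subunit median minus the small subunit median was 0.03, and it was slightly below 0 (-0.004) when the fit was given an offset for GC content.

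**Figure D3:**
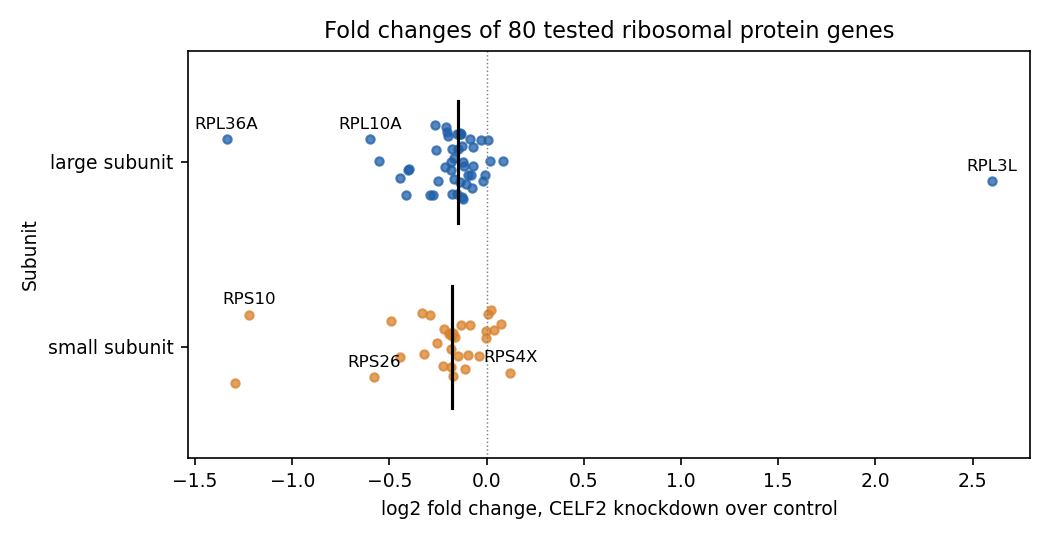
Log2 fold change of the knockdown over the control for 48 large subunit genes (upper row) and 32 small subunit genes (lower row), with a dot per gene and a black line at the median of each row, -0.15 and -0.18. RPL3L lies far to the right of the rest, and RPL36A and RPS10 far to the left.

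Among the large subunit proteins, the acidic stalk recruits the translation factors that hydrolyse GTP. RPLP0, its base, had 2256 and 1953 CPM in the knockdown libraries and 2145 and 2456 CPM in the controls (log2 fold change -0.13 ± 0.20 SE). RPLP1 had 1063 and 971 CPM in the knockdown libraries and 949 and 1209 CPM in the controls (-0.09 ± 0.20 SE). RPLP2 had 506 and 474 CPM in the knockdown libraries and 483 and 606 CPM in the controls (-0.15 ± 0.18 SE). In all 3 stalk genes the groups overlapped, with control replicate 2 the highest library.

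RPL5 and RPL11 form a particle with the 5S ribosomal RNA and, when assembly is disturbed, bind MDM2, the ubiquitin ligase of p53. RPL5 had 791 and 839 CPM in the knockdown libraries and 794 and 919 CPM in the controls (log2 fold change -0.07 ± 0.18 SE), and the groups overlapped. RPL11 had 790 and 795 CPM in the knockdown libraries and 807 and 896 CPM in the controls (-0.10 ± 0.17 SE), with both knockdown libraries just below the controls. Of the proteins near the peptidyl transferase centre, where peptide bonds form, RPL3 had 1233 and 1178 CPM in the knockdown libraries and 1464 and 1750 CPM in the controls. Both knockdown libraries of RPL3 were lower, at a log2 fold change of -0.41 ± 0.19 SE that did not pass the edgeR test (adjusted p = 0.252). RPL10, an X-linked protein of that centre, had 968 and 836 CPM in the knockdown libraries and 894 and 1087 CPM in the controls, and the groups overlapped (-0.13). RPL8 had 1208 and 1092 CPM in the knockdown libraries and 1209 and 1448 CPM in the controls (-0.21 ± 0.19 SE), with knockdown replicate 1 and control replicate 1 nearly equal. The 9 genes of the exit tunnel had a median log2 fold change of -0.18, all below 0, between -0.41 for RPL17 and -0.01 for RPL31. Of the 9, 4 had both knockdown libraries below both controls, as did 48.8% of the 80 genes. RPL23A, where the signal recognition particle docks, had 458 and 459 CPM in the knockdown libraries and 508 and 612 CPM in the controls (-0.29), and RPL38 had 259 and 281 CPM in the knockdown libraries and 306 and 345 CPM in the controls (-0.27). Both were lower in both knockdown libraries without passing the test. RPL23A and RPL38 were named for their small p within their list, which favours that order.

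Among the small subunit proteins, the mRNA path and the decoding site are lined by RPS2, RPS3, RPS15, RPS23, RPS26 and RPS28. Their median log2 fold change was -0.17, 6 of 6 were below 0, and 3 of 6 had both knockdown libraries below both controls. RPS2, which lies at the mRNA entry, had 2483 and 2218 CPM in the knockdown libraries and 2562 and 3310 CPM in the controls (-0.32 ± 0.21 SE), and control replicate 2 was far above the other libraries. RPS3, also at the entry, had 1295 and 1262 CPM in the knockdown libraries and 1352 and 1560 CPM in the controls (-0.19 ± 0.18 SE). RPS6, the substrate of the S6 kinases, had 1158 and 1125 CPM in the knockdown libraries and 1223 and 1368 CPM in the controls (-0.18 ± 0.18 SE). RPS27A, made as a fusion with ubiquitin, had 742 and 746 CPM in the knockdown libraries and 861 and 959 CPM in the controls (-0.29 ± 0.17 SE). RPSA, also known as a laminin receptor, had 2165 and 2015 CPM in the knockdown libraries and 2207 and 2671 CPM in the controls (-0.22 ± 0.20 SE). All 5 of these genes had both knockdown libraries below both controls, and none passed the test. That order held for 48.8% of the 80 genes and 27.8% of all tested genes. RPS2 and RPS3 were named for their small p within their list, which favours that order.

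RPS19, the gene most often mutated in Diamond-Blackfan anemia, had 882 and 785 CPM in the knockdown libraries and 690 and 897 CPM in the controls (0.07 ± 0.20 SE). The 2 control libraries of RPS19 enclosed both knockdown libraries. Of the 19 genes mutated in that disease, 17 had a log2 fold change below 0, with a median of -0.15, and 0 passed the edgeR test. An unadjusted edgeR p below 0.05 was found for 3 of the 19, and for 22.1% of all tested genes. limma-voom called none of them, as it called none in the whole table. DESeq2 called 1 of these 19, and 9.14% of all tested genes.

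Levels between genes were compared per kilobase of annotated exon. The length used was that of all annotated exons of a gene merged, and not that of its main mRNA. It ran from 767 bases for RPS12 to 9845 for RPS29, so the order depends on the annotation as well as on the counts. The highest were RPS2 at 1095 CPM per kb, RPS18 at 865 and RPS12 at 762 among small subunit genes, and RPL8 at 574, RPL19 at 553 and RPLP0 at 551 among large subunit genes. RPS18 had 1686 and 1593 CPM in the knockdown libraries and 1527 and 1762 CPM in the controls, and RPL19 had 959 and 855 CPM in the knockdown libraries and 938 and 1146 CPM in the controls. RPS12 had 555 and 544 CPM in the knockdown libraries and 591 and 648 CPM in the controls (-0.17 ± 0.17 SE). RPS12 was lower in both knockdown libraries, and RPS18 and RPL19 overlapped between groups.

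The largest differences below 0 among well-counted genes were those of RPL10A and RPS26. RPL10A (ENSG00000198755, chromosome 6, 35468408 to 35470785, plus strand), the protein of the mobile L1 stalk at the exit for spent tRNAs, had 378 and 350 CPM in the knockdown libraries and 527 and 577 CPM in the controls. The group means were 364 ± 19.8 CPM in the knockdown and 552 ± 35.0 CPM in the control (SD, n = 2 each). RPL10A was picked for its low fold change, which favours such a gap. The log2 fold change was -0.60 ± 0.17 SE, and it did not pass the edgeR test (adjusted p = 0.100), while DESeq2 gave an adjusted p of 0.0289 and the alternatives together ranged from 0.0289 to 0.328. RPS26 (ENSG00000197728, chromosome 12, 56041351 to 56044697, plus strand), which contacts the mRNA just upstream of the start codon, had 170 and 214 CPM in the knockdown libraries and 283 and 291 CPM in the controls. Here too both knockdown libraries were below both controls, at a log2 fold change of -0.58 ± 0.18 SE (edgeR adjusted p = 0.121).

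RPL23, a protein at the interface of the subunits, had 492 and 397 CPM in the knockdown libraries and 640 and 666 CPM in the controls (-0.56 ± 0.18 SE, edgeR adjusted p = 0.141). RPS20 had 742 and 674 CPM in the knockdown libraries and 888 and 1104 CPM in the controls (-0.49 ± 0.19 SE, edgeR adjusted p = 0.192). RPS9 had 410 and 380 CPM in the knockdown libraries and 481 and 596 CPM in the controls (-0.45 ± 0.18 SE, edgeR adjusted p = 0.209). In each of these 3 genes both knockdown libraries were lower than both controls, and none passed the test. The same order held for RPL6 and RPL24, singled out after their values had been seen as genes with an unadjusted p below 0.05. RPL6 had 809 and 680 CPM in the knockdown libraries and 974 and 1055 CPM in the controls (-0.45 ± 0.18 SE, edgeR adjusted p = 0.214), and RPL24 had 391 and 400.1 CPM in the knockdown libraries and 488 and 557 CPM in the controls (-0.40 ± 0.17 SE, edgeR adjusted p = 0.219).

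Differences above 0 were small apart from RPL3L and were spread over both subunits. RPS4X, an X-linked small subunit protein, had 1841 and 2021 CPM in the knockdown libraries and 1645 and 1904 CPM in the controls (0.12 ± 0.19 SE). RPL28 had 539 and 448 CPM in the knockdown libraries and 406 and 525 CPM in the controls (0.09 ± 0.20 SE). RPS3A had 1122 and 1293 CPM in the knockdown libraries and 1116 and 1234 CPM in the controls (0.04 ± 0.19 SE). The groups overlapped in all 3, and with RPS19, RPS27 and RPL3L these were the 6 highest fold changes.

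RPL3L (ENSG00000140986, chromosome 16, 1943974 to 1957606, minus strand), the paralog of RPL3 that replaces it in heart and skeletal muscle, stood apart from the other genes. It had 310 and 124 counts (15.3 and 5.22 CPM) in the knockdown libraries and 42 and 32 counts (1.5 and 1.90 CPM) in the controls. Both knockdown libraries were above both controls, and knockdown replicate 1 was far above replicate 2. The log2 fold change was 2.60 ± 0.54 SE (6.05-fold), and it did not pass the edgeR test (adjusted p = 0.0618). DESeq2 gave an adjusted p of 0.000120, and the alternatives ranged from 2.32e-09 to 0.229. Without knockdown replicate 1 the log2 fold change was 1.63, and without knockdown replicate 2 it was 3.17. RPL3, with 1178 CPM in its lowest library, had its lower values in the knockdown libraries.

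In the other paralogs the groups overlapped. RPL39L, a paralog of RPL39 known from testis and some cancer cells, had 24.0 and 32.9 CPM in the knockdown libraries and 33.4 and 29.6 CPM in the controls (-0.15 ± 0.22 SE), and RPL39 had 511 and 516 CPM in the knockdown libraries and 464 and 584 CPM in the controls (-0.03 ± 0.18 SE). RPS27L, a p53-induced paralog of RPS27, had 37.7 and 39.3 CPM in the knockdown libraries and 38.5 and 38.2 CPM in the controls (0.01 ± 0.17 SE). RPS27 had 424 and 456 CPM in the knockdown libraries and 395 and 470 CPM in the controls (0.02 ± 0.17 SE).

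The lowest fold changes of all belonged to genes with few counts. Of the 81 genes, 7 share 54.6% to 100% of their coding bases with another annotated gene on the same strand, in GENCODE v29 usually a readthrough into a neighbour, and the partner genes had 0 counts in every library. These 7 had mean levels of 3.09 to 125 CPM, below the 227 to 2643 CPM of the 70 genes that are neither in this group nor paralogs. The sources used here do not state how reads that match both genes were treated, and the counts of these 7 are uncertain.

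RPL36A (chromosome X, 101390824 to 101396154, plus strand), which lies at the exit site for tRNAs, had 3.45 and 1.64 CPM in the knockdown libraries and 7.22 and 5.58 CPM in the controls (-1.34 ± 0.43 SE, edgeR adjusted p = 0.136). RPS10 (chromosome 6, 34417454 to 34426125, minus strand), a Diamond-Blackfan gene, had 1.82 and 1.89 CPM in the knockdown libraries and 5.04 and 3.62 CPM in the controls (-1.22 ± 0.38 SE, edgeR adjusted p = 0.124). The groups did not overlap in either gene. RPS10 had 284 counts over the 4 libraries, while the 11 pseudogenes named after it had 822.

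Among the other genes with shared coding bases, RPL17 had 13.4 and 13.5 CPM in the knockdown libraries and 16.4 and 19.2 CPM in the controls (-0.41 ± 0.22 SE), and RPL26 had 24.0 and 25.3 CPM in the knockdown libraries and 27.0 and 27.95 CPM in the controls (-0.15). RPL22 had 95.0 and 85.7 CPM in the knockdown libraries and 96.7 and 94.7 CPM in the controls (-0.08), and RPS15A had 123 and 127 CPM in the knockdown libraries and 120 and 131 CPM in the controls. RPL36A, RPL26, RPL22 and RPS15A were singled out after their values had been seen. RPS10 and RPL17 were named because their p was among the smallest of their lists. Without the 7 genes that share coding bases and the paralogs, the median log2 fold change was -0.14 over 42 large subunit genes and -0.18 over 28 small subunit genes.

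**Figure D4:**
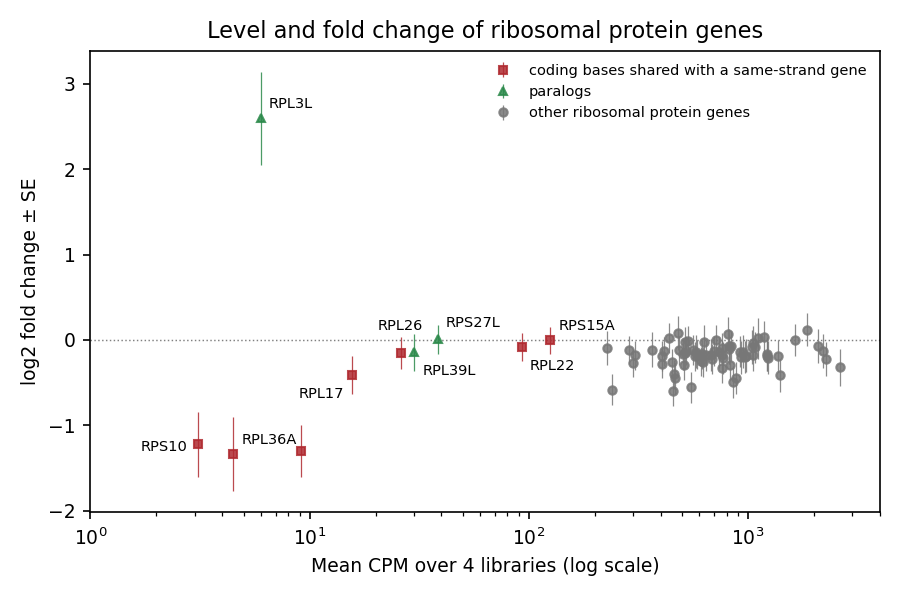
Log2 fold change (± SE) of each tested ribosomal protein gene against its mean CPM over the 4 libraries on a log scale, with genes that share coding bases as red squares, paralogs as green triangles and the rest as grey circles. The grey circles sit at 227 CPM or more and between -0.60 and 0.12, and the wide departures, RPL3L, RPL36A and RPS10 among them, lie at low levels.

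Features that the choice of genes did not use were also set beside the fold changes. The 46 genes with a pyrimidine start had a median log2 fold change of -0.16, and the 17 tested genes with RefSeq starts but no such start had -0.18. The match is fixed at the annotated base, so the 17 include RPL10A and RPS26, whose pyrimidine runs begin just after it. The 28 genes with small nucleolar RNA genes inside their bounds on the same strand had a median of -0.14, and the 52 others had -0.17. Genes above the median GC content of 49.9% had a median of -0.17 and the rest had -0.15. Replicates of a group differed with GC content: over 73 genes without shared coding bases, Spearman's rho with GC was -0.47 for knockdown replicate 2 over replicate 1 and 0.54 for control replicate 2 over replicate 1, against -0.02 for the fold change between the groups. These genes share their libraries, so the correlations are descriptions. Exons of a gene on the opposite strand cover more than 5% of the transcript of 12 genes (RPL9, RPL10, RPL18, RPL23A, RPL30, RPS3A, RPS6, RPS18, RPS23, RPS25 and RPS28 among them), and as no source used here states the strand setting of the counting, reads of the 2 genes cannot be told apart.

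Genes related to the ribosome but outside the selection were described by the same counts. The 7 further ribosomal proteins and paralogs (FAU, RACK1, RPL22L1, RPL26L1, RPL36AL and RPL7L1 among them) were 7 of 7 below 0, with a median of -0.28. Of these 7, edgeR and limma-voom called 0 and DESeq2 called 1 (9.14% of all tested genes). An unadjusted edgeR p below 0.05 was found for 1 (22.1% of all tested genes). RPL22L1, the paralog of RPL22, had 16.4 and 22.1 CPM in the knockdown libraries and 44.7 and 41.0 CPM in the controls (-1.16 ± 0.21 SE, edgeR adjusted p = 0.0543), against the -0.08 of RPL22. The 76 tested proteins of the mitochondrial ribosome had a median of -0.22, with 68 below 0 and 0 called by edgeR or limma-voom, 5 called by DESeq2 (9.14% of all tested genes) and 14 at an unadjusted p below 0.05 (22.1% of all tested genes). The 14 tested other TOP genes, among them elongation factors, had a median of -0.21, with 0 called by edgeR or limma-voom. DESeq2 called 2 of them (9.14% of all tested genes), and 3 had an unadjusted edgeR p below 0.05 (22.1% of all tested genes). EEF1D, a subunit of an elongation factor, was at -1.04 (edgeR adjusted p = 0.0553). The 14 genes of translation initiation and mTOR signalling had a median of -0.34, with 0 called by edgeR or limma-voom. DESeq2 called 1 of them (9.14% of all tested genes), and 2 had an unadjusted edgeR p below 0.05 (22.1% of all tested genes). EIF6, which keeps free large subunits from joining small ones, was at -0.71 (edgeR adjusted p = 0.0677).

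Of the 22 ribosome biogenesis genes, 2 fell past the threshold with edgeR, which called 0.27% of all tested genes as lower. Of the 22, 21 had log2 fold changes below 0, and the median was -0.63. NOP56, a core protein of the box C/D small nucleolar particles that guide methylation of ribosomal RNA, had 174 and 197 CPM in the knockdown libraries and 448 and 386 CPM in the controls (-1.17 ± 0.17 SE, edgeR adjusted p = 0.0483). NOP58, its partner, had 76.3 and 80.8 CPM in the knockdown libraries and 162 and 148 CPM in the controls (-0.98 ± 0.16 SE, edgeR adjusted p = 0.0483). DESeq2 called 10 of the 22, where it called 9.14% of all tested genes, and limma-voom called 0, as it did over the whole table. Both knockdown libraries were below both controls for 21 of the 22 genes (95.5%), where 27.8% of all tested genes showed that order. The 12 genes of S phase and mitosis, measured to describe the state of the libraries, summed to 1031 and 1408 CPM in the knockdown libraries and 4192 and 2590 CPM in the controls. Of these 12 genes 6 fell past the threshold with edgeR (0.27% of all tested genes were called lower) and 12 had log2 fold changes below 0. DESeq2 called 12, against 9.14% of all tested genes, and limma-voom 0, as over the whole table. The calls of both lists changed with the method and with the library left out. The part of the S phase and mitosis difference in the ribosomal protein values was not tested. Whether ribosome biogenesis and ribosomal protein genes differ from each other was not tested either.

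**Figure D5:**
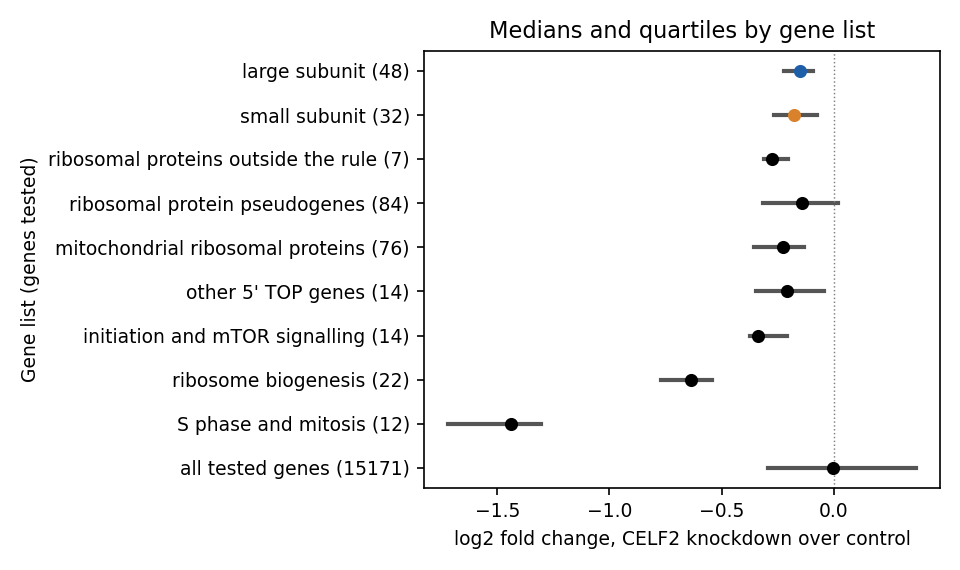
Median (dot) and quartiles (bar) of the log2 fold change of the knockdown over the control for gene lists, with the number of genes tested in parentheses. Large and small subunit genes sit at -0.15 and -0.18, ribosome biogenesis genes at -0.63, S phase and mitosis genes at -1.44, and all tested genes near 0.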

How the data were processed

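PolyA RNA was sequenced from 4 libraries of SCC13 cells, 2 with a CELF2 shRNA and 2 with a scrambled shRNA, grouped by their titles. The authors deposited raw whole-number read counts per Ensembl gene, and HISAT2, edgeR and GRCh38 are named in the submitters' processing notes without versions. For the counting program, annotation release, strand setting and shared reads the sources used here give nothing. Libraries held 17649090 to 27898889 counts.

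From these counts, the quasi-likelihood model of edgeR 4.0.16 (in R 4.3.3) was fitted over the whole table, with TMM scaling and filterByExpr at a minimum count of 10 (CELF2 kept). The p-values were adjusted by Benjamini-Hochberg over the 15171 genes tested, with a threshold of 0.05. CPM values are TMM-scaled. Standard errors were derived from the fit, as the absolute log2 fold change divided by the square root of the quasi-likelihood F statistic. Floors of 3 counts cover counting error only. Between replicates, chi-square divided by its degrees of freedom was 48.1 for the knockdown and 54.3 for the control libraries, so they are distinct libraries, and the common biological coefficient of variation was 21.6%. Overlaps and exon lengths came from GENCODE v29 and start windows from RefSeq (GRCh38.p14). The edgeR fit was tried on simulated counts. These had less spread between replicates than the real libraries and larger fold changes than most of the ribosomal protein genes, so the trial does not show how well small changes are found here.

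Alternatives were DESeq2 1.42.0, limma-voom (limma 3.58.1), DESeq2 size factors, upper quartile scaling, TMM without the ribosomal protein genes, no filter, a replicate block, a GC offset, each replicate left out and, chosen after seeing the data, the genes that share coding bases left out. The genes and lists were chosen with earlier results of these data known. Named by rule were the stalk proteins, RPL5, RPL11, the paralogs with their parents, RPS6, RPS19, RPS27A, RPSA, the 6 highest and 6 lowest fold changes at a mean of at least 5 CPM, the 3 genes per subunit with the highest CPM per kb, called or filtered genes, and up to 3 genes per other list with the smallest p. A few genes named by the rule enter only the counts of their list and are not reported here singly.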

Additional observations from a re-analysis of the deposited data

How the results depend on the processing

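The number of genes called over the whole table depended on the setting: 133 with edgeR as reported, 211 with DESeq2 size factors, 225 with upper quartile scaling, 2139 with no filter on low counts, 228 with a GC offset, 1386 with DESeq2 and 0 with limma-voom (3404 at an unadjusted p below 0.05), and 0 to 616 when 1 library was left out (0 without control replicate 1, with 1724 at an unadjusted p below 0.05, 7 without knockdown replicate 2, 368 without knockdown replicate 1 and 616 without control replicate 2). Of the calls, 69.2% were higher in the knockdown as reported and 55.3% with the GC offset. Ribosomal protein genes called numbered 4 with no filter (RPL10A, RPL36A and RPL3L among them), 3 with DESeq2, and 0 to 1 when 1 library was left out (1 without knockdown replicate 1). With the replicate number as a block, 1579 genes and 3 ribosomal protein genes (RPL36A and RPL3L among them) were called; the labels give no shared batch or day, there are only 2 pairs, and the deviations of same-numbered libraries correlated at 0.20. Whether they were paired is not known, and the block was not used in the reported fit. When 1 library was left out, the median log2 fold change ranged from -0.27 to -0.043 over all tested ribosomal protein genes, from -0.25 to -0.038 over the large subunit and from -0.28 to -0.06 over the small subunit, and it stayed below 0 under every alternative run. The causes were not tested. With 2 libraries per group, the standard errors of single genes were 0.16 or more, about the size of the median of -0.17.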

Other observations

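Processed pseudogenes of ribosomal proteins can take up reads of their parent genes. Of 1131 rows named as such pseudogenes, 274 had a count, and together they took 0.146% and 0.138% of the counts in the knockdown libraries and 0.148% and 0.163% in the controls. Like the genes themselves, they were highest in control replicate 2. The 84 that were tested had a median log2 fold change of -0.14, with 61 below 0 and 0 called by edgeR, DESeq2 or limma-voom, 4 of them at an unadjusted p below 0.05.

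RPL30, picked after its values were seen, was the ribosomal protein gene above 100 CPM whose knockdown libraries were furthest apart. It had 877 and 1354 CPM in the knockdown libraries and 1023 and 1180 CPM in the controls, and the log2 fold change was 0.02 ± 0.24 SE. Knockdown replicate 2 was the highest of the 4 libraries and knockdown replicate 1 the lowest, and exons of a gene on the opposite strand cover 47.2% of its transcript.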
